A study of Mus musculus with 12 samples.

Results

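HIF2α AKO mice were compared with WT mice at thermoneutrality (TN), the condition in which inguinal white adipose tissue (iWAT) is not asked to make heat. The comparison holds 6 of the 12 RNA-seq libraries of the series, chosen by their labels, namely TN HIF2α AKO replicates 1 to 3 and TN WT replicates 1 to 3. The other 6 libraries come from the same genotypes upon cold (4 to 6 °C for 3 days) and served here for the estimate of the spread and as a second look at each genotype difference. All mice were C57BL/6 males at 10 weeks of age. TN mice were kept at 30 °C for 1 week. WT mice were HIF2a loxP/loxP without Cre, and HIF2α AKO mice were Adipoq-Cre HIF2a loxP/loxP, so the floxed alleles were shared by all groups, while effects of Cre and of the deletion cannot be told apart. The Adiponectin promoter drives Cre in adipocytes, so the other cells of the fat pad kept HIF2α. In these bulk samples, fewer cells of a type and less RNA per cell cannot be told apart.

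HIF2α, the product of Epas1, is an oxygen-regulated transcription factor. Prolyl hydroxylases mark it for VHL-dependent breakdown when oxygen is plentiful, and when oxygen is scarce it pairs with ARNT and binds hypoxia-response elements in genes for glycolysis, vessel growth and iron uptake. In iWAT, beige adipocytes form upon cold and express Ucp1, the uncoupling protein of thermogenic mitochondria, and they lose this programme at TN.

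The 6 TN libraries held between 22368316 and 35204631 counts on genes, and the adipocyte genes Adipoq, Lep, Retn, Cfd, Plin1, Fabp4 and Cidec were counted in every library. The summed level of 17 adipocyte genes was 19564, 32958 and 23121 CPM (counts relative to the scaled library size) in HIF2α AKO replicates 1, 2 and 3, and 23811, 13828 and 27869 CPM in WT replicates 1, 2 and 3. Thus HIF2α AKO replicate 1 and WT replicate 2 were low in adipocyte transcripts, and the groups overlapped. Libraries also stood apart in transcripts of other tissues. The 16 skeletal muscle markers summed to 2118 CPM in HIF2α AKO replicate 2 and to between 45.3 and 140 CPM in the other 5 libraries. The epithelial markers summed to 355 CPM in WT replicate 3 and to between 30.2 and 46.6 CPM in the other 5. Results that rest on these libraries are given with and without them.

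**Figure D1:**
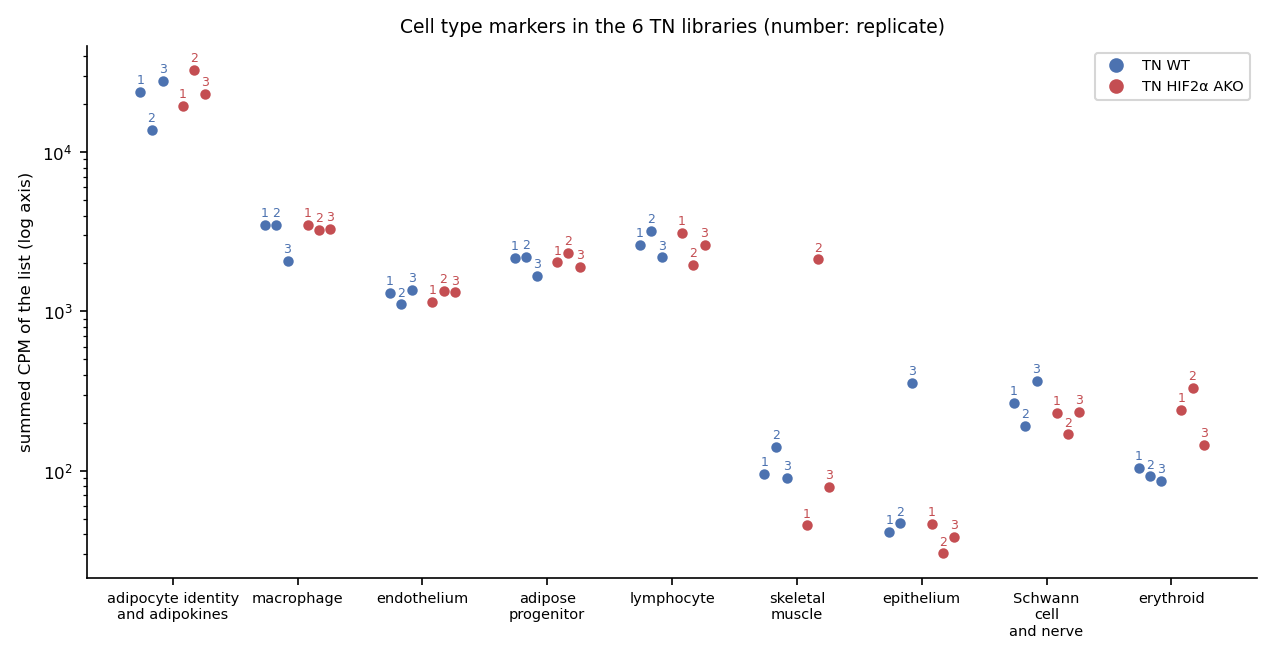
Summed CPM of each list of cell type markers (log axis) in the 3 TN WT libraries (blue) and the 3 TN HIF2α AKO libraries (red), with the replicate number above each point. Skeletal muscle transcripts stand out in HIF2α AKO replicate 2 (2118 CPM) and epithelial transcripts in WT replicate 3 (355 CPM), whereas the erythroid markers lie higher in all 3 HIF2α AKO libraries (145 to 332 CPM) than in WT (86.4 to 104 CPM).

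Epas1, the targeted gene, was not called different between the labelled genotypes at TN. Its level was 289, 394 and 360 CPM in HIF2α AKO and 373, 278 and 430 CPM in WT. The groups overlapped, with the lowest value in a WT library. The log2 fold change (log2FC, given throughout ± its standard error from the fit, with 3 libraries a group) was -0.05 ± 0.20 (edgeR quasi-likelihood test, adjusted p = 0.999), and the two-sided exact permutation test over 3 against 3 libraries gave p = 0.9, where the smallest p possible is 0.1. The value was 0.067 without HIF2α AKO replicate 1 and 0.096 without WT replicate 3. Upon cold the log2FC of Epas1 was 0.40 (edgeR quasi-likelihood test, unadjusted p = 0.0694), with every HIF2α AKO library above every WT library. The counts cover the whole of Epas1 (chromosome 17, 86753864 to 86833410) and all cells of the fat pad, so they do not show the floxed part in adipocytes separately, and HIF2α AKO names the libraries so labelled throughout.

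Across the transcriptome, 1 of 15306 tested genes (0.00653%) differed between the TN groups at an adjusted p under 0.05, and this gene was Zfp949, a member of the zinc finger family. At an unadjusted p under 0.05, 446 genes (2.91%) passed, of which 193 (1.26%) were higher and 253 (1.65%) lower in HIF2α AKO. The HIF2α AKO and WT libraries did not overlap for 1177 genes (7.69%), with 565 (3.69%) above and 612 (4.0%) below WT, and the fitted level was higher in HIF2α AKO for 8306 genes (54.3%). Without HIF2α AKO replicate 2, 238 genes passed at an unadjusted p under 0.05, and 644 passed without HIF2α AKO replicate 1. DESeq2 called 13 genes on the 6 TN libraries and 9 on all 12, and voom with sample weights called 2, so the number of calls depended on the tool. On counts simulated for all 12 libraries with known changes, DESeq2 called more unchanged genes than edgeR or voom did. With upper-quartile scaling, 23.5% of the genes at an unadjusted p under 0.05 were higher in HIF2α AKO, against 43.3% with TMM, and with no filter on low counts the share was 28.1%.

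Zfp949 rose in HIF2α AKO iWAT at TN. It was at 53.4, 40.4 and 47.9 CPM in HIF2α AKO and at 16.9, 15.1 and 15.8 CPM in WT. Every HIF2α AKO library lay far above every WT library. The log2FC was 1.57 ± 0.13 (edgeR quasi-likelihood test, adjusted p = 0.00211), and it lay between 1.47 and 1.67 when any 1 TN library was left out. With edgeR on the 6 TN libraries alone the fold change was 1.56 and the adjusted p was 0.132.

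Sequences before the start sites are shown for Zfp949, for Cited2, the lower gene with the smallest p, and for Eif4a2, the neighbour of Adipoq that was higher at both temperatures. The core of the hypoxia-response element was searched as ACGTG and GCGTG on both strands (read as CACGT and CACGC on the other strand) in the 250 bases before each start site of RefSeq, build GRCm38.p6, and matches are in capitals. The 2 matches of Cited2 overlap as CACGTG, which is also an E-box. Such a core occurred in 38.6% of all 32851 windows and in 58.2% of the tested genes with a window, so a match is common, and it is no evidence of binding. Of the 20 lead genes, the 10 higher and 10 lower genes with the smallest unadjusted p among those described further on, 18 had a window and 14 of these held at least 1 core. The windows shown lie on the + strand at chr9:88547770-88548019 for Zfp949, chr10:17722978-17723227 for Cited2 and chr16:23107218-23107467 for Eif4a2.
Zfp949: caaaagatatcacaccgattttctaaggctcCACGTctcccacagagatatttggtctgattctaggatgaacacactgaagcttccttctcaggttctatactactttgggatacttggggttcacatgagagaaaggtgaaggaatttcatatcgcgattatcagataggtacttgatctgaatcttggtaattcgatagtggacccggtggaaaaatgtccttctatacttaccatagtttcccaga
Cited2: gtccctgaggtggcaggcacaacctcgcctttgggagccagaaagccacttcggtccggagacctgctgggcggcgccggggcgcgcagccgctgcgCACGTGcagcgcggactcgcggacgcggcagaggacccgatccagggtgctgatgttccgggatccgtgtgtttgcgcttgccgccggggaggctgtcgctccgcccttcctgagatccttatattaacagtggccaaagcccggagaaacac
Eif4a2: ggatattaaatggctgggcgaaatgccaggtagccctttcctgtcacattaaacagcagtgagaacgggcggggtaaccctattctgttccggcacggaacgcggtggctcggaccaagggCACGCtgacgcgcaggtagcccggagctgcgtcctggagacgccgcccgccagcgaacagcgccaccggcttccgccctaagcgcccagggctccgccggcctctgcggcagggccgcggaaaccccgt

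The genes around Zfp949 were mostly lower in HIF2α AKO, opposite to Zfp949 itself. Zfp949 lies on chromosome 9 from 88548020 to 88571086, on another chromosome than Epas1 (chromosome 17) and Adipoq (chromosome 16). Where the Cre construct sits in the genome is not stated in the sources used here. Of 19 other tested genes within 1.5 Mb, 7 (36.8%, against 2.91% of all tested genes) had an unadjusted p under 0.05, all of them lower, and 6 of the 19 did not overlap between the groups, beside 7.69% of all tested genes. None of the 7 passed an adjusted p of 0.05. The long noncoding RNA host gene Snhg5, next to Zfp949, was at 24.4, 30.9 and 22.6 CPM in HIF2α AKO and at 46.8, 29.5 and 36.1 CPM in WT, a log2FC of -0.53 ± 0.17, with overlap between the groups. The RIKEN cDNA gene 9430037G07Rik on the other side was at 0.896, 1.00 and 0.884 CPM against 1.71, 1.64 and 2.39 CPM, a log2FC of -1.04 ± 0.26. Tbx18, a T-box transcription factor, stood at 4.64, 5.43 and 5.73 CPM against 7.82, 8.19 and 6.45 CPM (log2FC -0.51 ± 0.17). The 9430037G07Rik and Tbx18 libraries of HIF2α AKO were all below those of WT.

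Most of this neighbourhood had the same signs upon cold, in libraries that do not enter the TN fold changes but share the estimate of the spread with them in 1 fit. Zfp949 was at 31.8, 37.7 and 44.1 CPM in cold HIF2α AKO and at 13.6, 12.1 and 13.2 CPM in cold WT, and the test of the difference between temperatures gave an unadjusted p of 0.909 (edgeR quasi-likelihood test). That test reuses the TN values for which Zfp949 was named. Of the 19 neighbours, 16 had the same sign at both temperatures, and 4 of the 7 also had an unadjusted p under 0.05 upon cold with the same sign, p-values that are therefore not independent of those at TN. These were Cyb5r4, a cytochrome b5 reductase, Tbx18, 9430037G07Rik and Bcl2a1d, whose reads may be shared with its near-identical paralogs. The fold changes of Bcl2a1d were -1.08 ± 0.35 at TN and -1.06 ± 0.36 upon cold on the log2 scale.

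**Figure D2:**
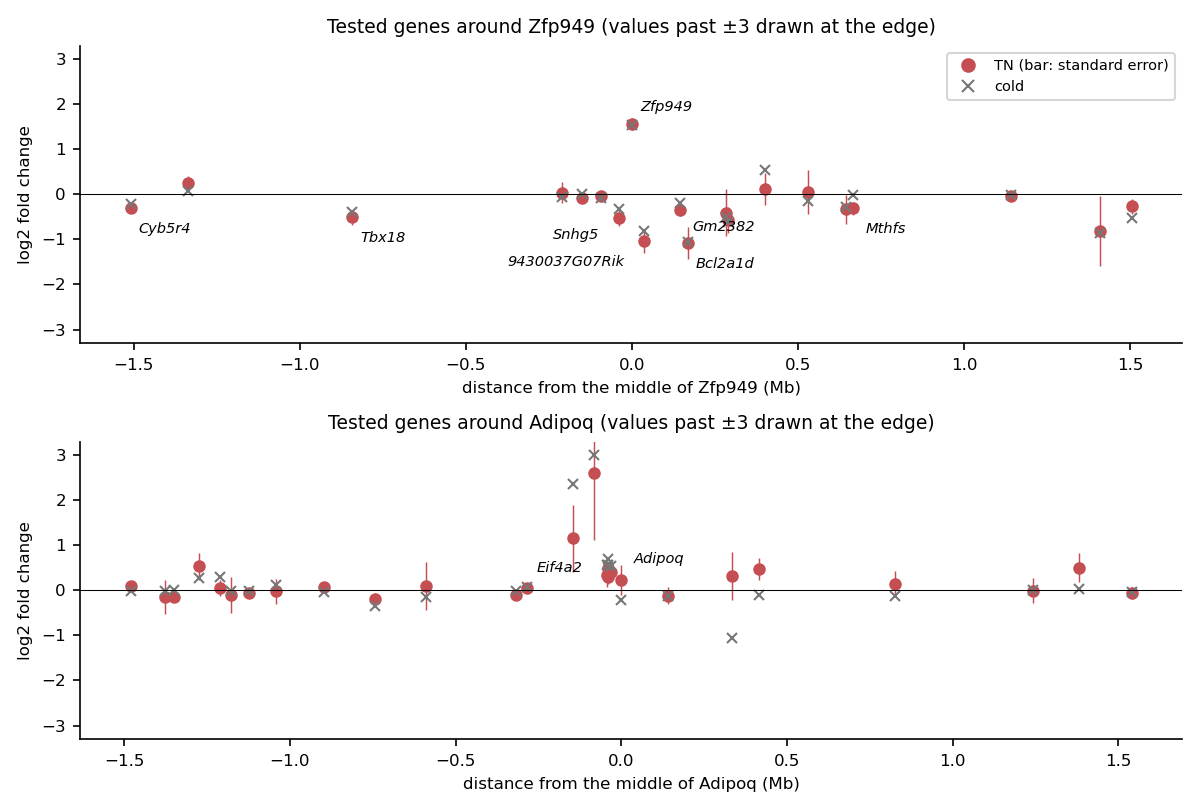
Log2 fold change of HIF2α AKO against WT for each tested gene, against its distance in Mb from the middle of Zfp949 (top) or Adipoq (bottom), at TN (red circles, bars show the standard error) and upon cold (grey crosses). Around Zfp949, the 7 labelled genes with an unadjusted p under 0.05 at TN lie below 0 while Zfp949 lies at 1.57, and near Adipoq Eif4a2 lies at 0.50 at TN and 0.56 upon cold.

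Near Adipoq, whose promoter drives Cre, 1 of 26 other tested genes had an unadjusted p under 0.05 at TN (3.85%, near the 2.91% of all tested genes) and 6 had one upon cold, where 2.95% of all tested genes did. The TN gene was Eif4a2, an RNA helicase of translation initiation (chromosome 16, 23107468 to 23114132). It was at 698, 635 and 591 CPM in HIF2α AKO and at 435, 447 and 482 CPM in WT, with no overlap and a log2FC of 0.50 ± 0.10 (unadjusted p = 5.26e-04). Upon cold the log2FC was 0.56 ± 0.10. Kng1 and Kng2, which encode kininogens, lie beside it and were named after their values were seen. Kng2 was at 0.156, 0.251 and 0.424 CPM in TN HIF2α AKO against 0.102, 0.0685 and 0.205 CPM in TN WT, with overlap, whereas upon cold it was at 39.8, 18.6 and 17.7 CPM against 6.94, 5.17 and 2.70 CPM. Kng1 was at 0 in every WT library of either temperature, and at 0, 0.0314 and 0.0353 CPM in TN HIF2α AKO, which is at most 1 read per library, against 3.39, 1.73 and 1.36 CPM in cold HIF2α AKO. Rfc4 and Snora81, also named after their values were seen, lie nearer to Eif4a2 than Kng1 and Kng2 do. Their log2FC values were 0.41 and 0.29 at TN, with overlap. Upon cold they were 0.53 and 0.69, with every HIF2α AKO library above WT. The 6 genes at that limit upon cold were Kng1, Kng2, Eif4a2, Snora81 and Rfc4, all higher and close to each other, and Etv5, which was lower (log2FC -0.34). Adipoq itself had a log2FC of 0.23 ± 0.34 with overlapping groups at TN. Near Epas1, 1 of 15 other tested genes (6.67%, beside 2.91% of all) had an unadjusted p under 0.05, the epithelial gene Epcam, which was at 35.0 CPM in WT replicate 3 and between 2.39 and 5.69 CPM in the other 5 libraries.

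The lead genes were the 10 higher and 10 lower genes with the smallest unadjusted p that had no overlap between the TN groups and a mean count of at least 50, so their TN values are given as a description. Apart from Zfp949 they did not pass an adjusted p of 0.05 in edgeR. Jdp2, a repressor of the AP-1 family, was at 14.2, 16.4 and 13.9 CPM in HIF2α AKO and at 10.5, 8.29 and 9.93 CPM in WT (log2FC 0.63 ± 0.11). Tsc22d3, the glucocorticoid-induced leucine zipper GILZ, was at 102, 98.7 and 145 CPM against 60.9, 59.3 and 68.3 CPM (log2FC 0.87 ± 0.20). HIF2α AKO replicate 3 was the highest library for Tsc22d3 and replicate 2 for Jdp2.

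Mid1, a ubiquitin ligase that binds microtubules, was at 40.0, 34.6 and 37.2 CPM in HIF2α AKO and at 21.1, 15.6 and 14.2 CPM in WT (log2FC 1.14 ± 0.29). Mat2a, which makes the methyl donor S-adenosylmethionine, was at 268, 329 and 279 CPM against 207, 196 and 209 CPM (log2FC 0.52 ± 0.13). Tob2, an antiproliferative protein linked to mRNA deadenylation, was at 84.5, 84.8 and 80.7 CPM against 59.4, 60.3 and 56.3 CPM (log2FC 0.51 ± 0.12). The Tob2 and Mat2a libraries of WT were close to each other and well below HIF2α AKO. The other higher lead genes were Zhx3, 3110043O21Rik and Tmem37, with log2FC values between 0.63 and 0.72.

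Cited2, a transcriptional coregulator that HIF induces and that competes with HIF-1α for CBP/p300, was the lower gene with the smallest p. It was at 38.5, 40.1 and 40.5 CPM in HIF2α AKO and at 54.7, 61.9 and 53.8 CPM in WT. The HIF2α AKO libraries lay within a narrow range below all WT libraries. The log2FC was -0.52 ± 0.08 (edgeR quasi-likelihood test, adjusted p = 0.205), between -0.55 and -0.45 with any 1 TN library left out. Cited2 was called by DESeq2 on the 6 TN libraries (adjusted p = 0.00337) and by voom (adjusted p = 0.0390). Upon cold its log2FC was -0.25 ± 0.08 (unadjusted p = 0.00680).

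Cirbp, an RNA-binding protein induced by mild cold, was at 54.6, 46.9 and 58.8 CPM in TN HIF2α AKO and at 82.6, 72 and 78.5 CPM in TN WT (log2FC -0.54 ± 0.11). Prkca, which encodes protein kinase C alpha, was at 33.5, 34.7 and 35.5 CPM against 44.9, 42.0 and 43.8 CPM (log2FC -0.33 ± 0.07). Slc15a2, a transporter of short peptides, showed the widest gap, at 2.73, 1.44 and 1.45 CPM against 17.1, 24.1 and 48.0 CPM (log2FC -3.99 ± 0.89). Its WT libraries spread widely, with WT replicate 3 the highest, and the value was -4.35 to -3.46 with any 1 TN library left out and -3.3 without HIF2α AKO replicate 2 and WT replicate 3. Gbp11, an interferon-inducible GTPase of a family with similar members, was at 13.2, 7.10 and 4.35 CPM against 29.1, 22.3 and 15.5 CPM (log2FC -1.45 ± 0.39). The other lower lead genes were Nrde2, Cyb5r4, Rasl11a, Slc14a1 and Tgfb2, with log2FC values between -0.75 and -0.30.

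**Figure D3:**
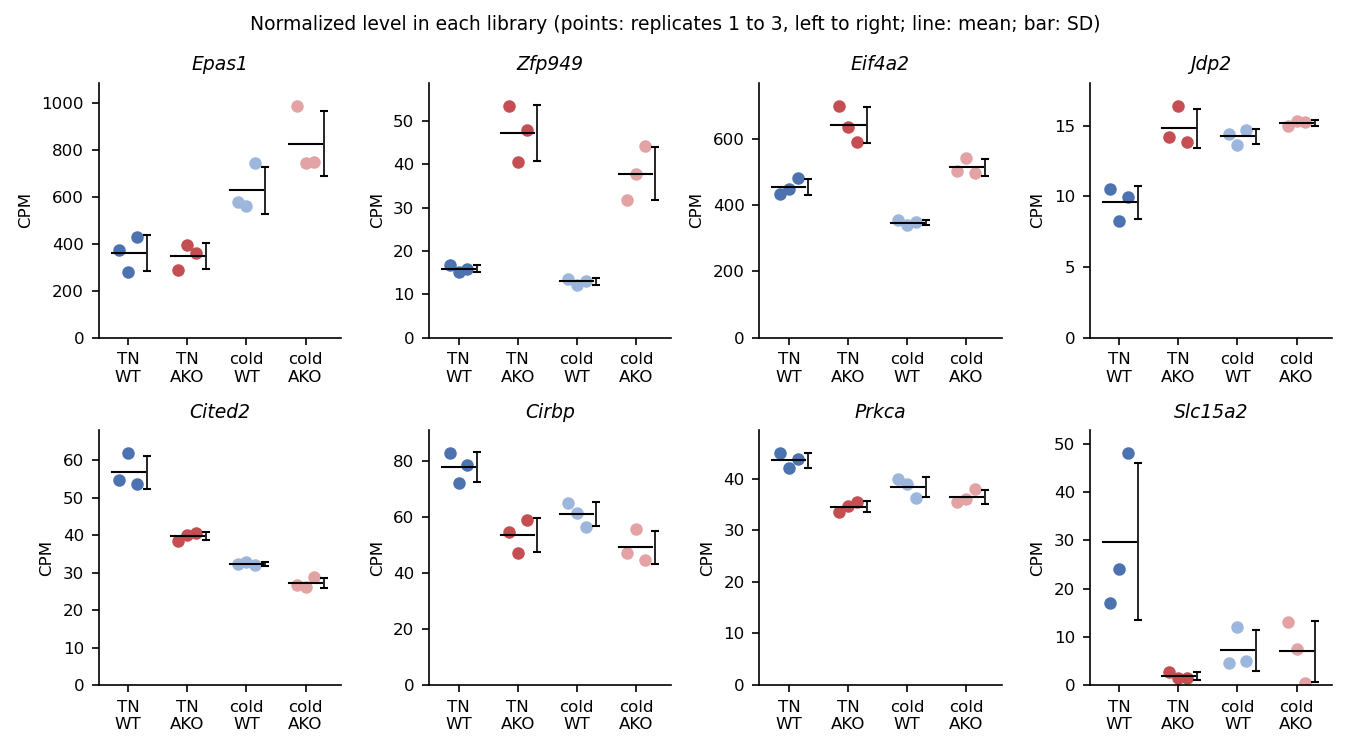
CPM of Epas1 and 7 lead genes in all 12 libraries by group, with each library as a point, the mean as a line and the SD (n = 3) as a bar. Epas1 overlaps between the TN groups, whereas upon cold every HIF2α AKO library lies above WT. Zfp949 and Eif4a2 are higher in HIF2α AKO at both temperatures, and Slc15a2 is low in TN HIF2α AKO (1.44 to 2.73 CPM) but overlaps upon cold.

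The genotype differences at TN were compared with those upon cold, to see which of them appeared in both sets of libraries. Of the 20 lead genes, 16 had the same sign upon cold, and 8 also had an unadjusted p under 0.05 with that sign, beside 451 of 15306 genes (2.95%) at that limit upon cold, with the spread estimated from all 12 libraries for both. The 8 were Zfp949, Eif4a2, Tob2, Tmem37, Cited2, Cirbp, Nrde2 and Cyb5r4. Over all 446 genes with an unadjusted p under 0.05 at TN, 268 (60.1%) had the same sign upon cold, against 54.8% of all tested genes. Of the 446, 36 (8.07%) also passed the limit upon cold, beside 2.95% of all tested genes. Only 21 of these 36 had the same sign at both temperatures. Among the 58 genes with an unadjusted p under 0.01 at TN, 38 (65.5%) shared the sign. Across the 15306 genes the fold changes at the 2 temperatures had a Pearson correlation of 0.31 and a Spearman correlation of 0.13, which is a description, since genes are not independent and skeletal muscle genes were high in a HIF2α AKO library at each temperature.

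No gene passed an adjusted p of 0.05 for the difference between the genotype effects (edgeR quasi-likelihood test, DESeq2 and voom alike), and 327 genes (2.14%) had an unadjusted p under 0.05. Because the lead genes were picked for their TN values, those that follow are given with their values upon cold and no test of the difference. Zhx3, a zinc finger and homeobox repressor, was at 20.5, 31.6 and 24.8 CPM in TN HIF2α AKO against 17.4, 16.2 and 16.1 CPM in TN WT, but at 35.6, 26.3 and 26.6 CPM against 40.6, 31.6 and 40.1 CPM upon cold. The log2FC values of Zhx3 were 0.63 at TN and -0.34 upon cold. Mat2a (0.52 at TN, -0.12 upon cold) and Gbp11 (-1.45 at TN, 0.65 upon cold) also had opposite signs. Slc15a2 had a log2FC of -0.05 ± 0.80 upon cold, where its levels were 13.1, 7.48 and 0.401 CPM in HIF2α AKO and 4.61, 12.0 and 4.91 CPM in WT. The levels of Slc15a2 thus overlapped upon cold. Jdp2 was at 0.09 on the log2 scale upon cold, with levels of at most 15.4 CPM in HIF2α AKO and at least 13.7 CPM in WT.

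**Figure D4:**
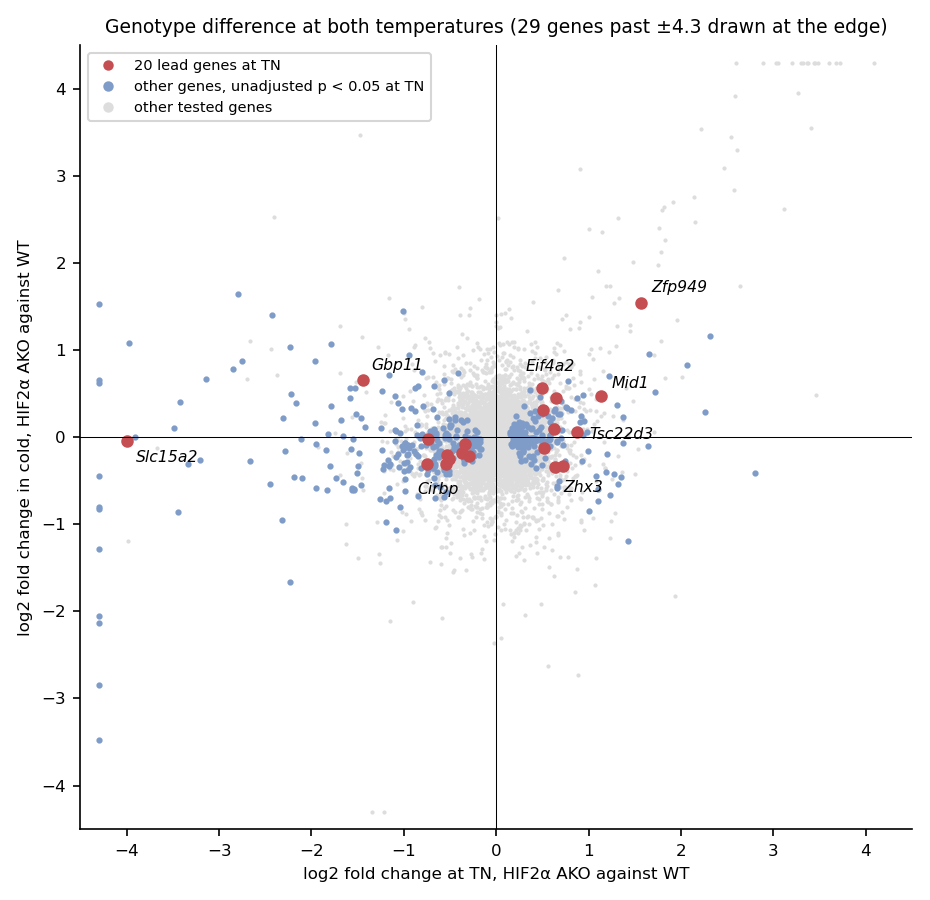
Log2 fold change of HIF2α AKO against WT upon cold (vertical axis) against that at TN (horizontal axis) for 15306 genes, with the 20 lead genes in red, other genes with an unadjusted p under 0.05 at TN in blue and all others in grey. Zfp949 lies near the diagonal at 1.57 and 1.55, Eif4a2 at 0.50 and 0.56, and Slc15a2 lies at -3.99 at TN but near 0 upon cold.

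Genes of the HIF pathway itself showed small differences at TN, with no call. None of the 5 HIF subunits and none of the 5 oxygen-sensing hydroxylases and VHL had an unadjusted p under 0.05. Hif1a, the alpha subunit of HIF1, was at 107, 113 and 111 CPM in HIF2α AKO and at 116, 116 and 92.1 CPM in WT (log2FC 0.03 ± 0.13). Arnt, the shared partner subunit, had a log2FC of 0.02 ± 0.08. Egln2, the prolyl hydroxylase PHD1, was at 97.6, 109 and 105 CPM against 93.5, 88.2 and 88.0 CPM, which did not overlap, with a log2FC of 0.21 ± 0.10 (unadjusted p = 0.0516). The inhibitory subunit Hif3a did not overlap either, at 3.31, 3.27 and 3.00 CPM against 2.90, 2.19 and 2.70 CPM, beside the 3.69% of all tested genes with every HIF2α AKO library above WT.

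Of 31 tested hypoxia-responsive genes, 21 were higher and 10 lower, with a median log2FC of 0.07 beside 0.01 over all tested genes. The median was -0.0020 without WT replicate 2, 0.018 without HIF2α AKO replicate 3, 0.022 without HIF2α AKO replicate 2, 0.12 without HIF2α AKO replicate 1 and 0.14 without WT replicate 3. Of the 31 genes, 1 passed an unadjusted p of 0.05, a share near the 2.91% of all genes. This was Ddit4, an inhibitor of mTORC1, at 51.7, 35.6 and 73.6 CPM in HIF2α AKO and 33.2, 37.9 and 34.5 CPM in WT (log2FC 0.61 ± 0.27). The groups overlapped, because HIF2α AKO replicate 2 was within the WT range, and the log2FC of Ddit4 was 0.31 without HIF2α AKO replicate 3. Vegfa, the vascular growth factor, was at 230, 343 and 248 CPM against 252, 202 and 268 CPM (log2FC 0.18 ± 0.17). Slc2a1, the glucose transporter GLUT1, was at 38.1, 32.2 and 38.1 CPM against 41.8, 40.5 and 41.2 CPM (log2FC -0.19 ± 0.16). It was the only member of the list whose HIF2α AKO libraries all lay below WT, beside 4.0% of all tested genes. Angptl4, an inhibitor of lipoprotein lipase, had a log2FC of -0.75 ± 0.49 with overlap. Glycolytic Ldha and Pgk1 had log2FC values of 0.11 and 0.10 with standard errors of 0.33 and 0.17.

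Signals that start thermogenesis run from β-adrenergic receptors through adenylyl cyclase and PKA. Of 19 genes of this path, 13 were higher in TN HIF2α AKO, beside 54.3% of all tested genes, with a median log2FC of 0.07, and none had an unadjusted p under 0.05. The median was 0.0043 without HIF2α AKO replicate 2, 0.015 without WT replicate 2 and 0.24 without WT replicate 3, so single libraries set its size. Prkaca, the catalytic subunit PKA Cα, was at 91.6, 162 and 138 CPM in HIF2α AKO and 114, 84.4 and 153 CPM in WT (log2FC 0.15 ± 0.25). Adrb3, the β3-adrenergic receptor of adipocytes, had a log2FC of -0.10 ± 0.43. The levels of Prkaca followed the order of the adipocyte markers within each group, with HIF2α AKO replicate 1 and WT replicate 2 the lowest. Adcy3, an adenylyl cyclase, was at 40.7, 43.2 and 45.2 CPM against 37.4, 33.2 and 35.0 CPM (log2FC 0.29 ± 0.19). It was the 1 member of 19 with every HIF2α AKO library above WT, beside 3.69% of all tested genes.

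Thermogenic and beige genes were more often on the higher side in HIF2α AKO, although Ucp1, Dio2 and Fabp3 had few counts at TN. Of 20 genes, 17 had a higher fitted level, with a median log2FC of 0.28 beside 0.01 over all genes, and 3 had an unadjusted p under 0.05, beside 2.91% of all genes. The median was 0.11 without HIF2α AKO replicate 2, 0.14 without WT replicate 2, where 13 of 20 were higher, and 0.52 without WT replicate 3. Upon cold it was 0.52. At TN, 3 of the 20 genes had every HIF2α AKO library above WT and 1 had every one below, beside 3.69% and 4.0% of all tested genes. The summed level of the list was 194, 320 and 264 CPM in HIF2α AKO and 244, 152 and 259 CPM in WT. The sums overlapped and were lowest in HIF2α AKO replicate 1 and WT replicate 2, the libraries lowest in adipocyte markers. HIF2α AKO replicate 2, the highest, was also the library with skeletal muscle transcripts, whose part in these values was not tested. Ucp1 was at 0.740, 0.722 and 3.85 CPM in HIF2α AKO, from 19, 23 and 109 counts, and at 0.204, 0.446 and 0.648 CPM in WT, from 8, 13 and 19 counts. The groups did not overlap, but HIF2α AKO replicate 3 carried most of the difference. The log2FC was 2.07 ± 0.69 (unadjusted p = 0.0120), and it was 0.80 without HIF2α AKO replicate 3. Dio2, which activates thyroid hormone, was at 0.857, 1.66 and 2.65 CPM against 1.09, 0.548 and 0.273 CPM (log2FC 1.37 ± 0.50). Fabp3, a fatty acid binding protein of oxidative tissue, was at 0.312, 1.26 and 1.41 CPM against 0.306, 0.514 and 0.136 CPM (log2FC 1.66 ± 0.61). Dio2 and Fabp3 overlapped between the groups. Cidea, a lipid droplet protein of brown and beige cells, was at 20.3, 39.0 and 35.8 CPM against 33.4, 7.37 and 38.2 CPM (log2FC 0.27 ± 0.48), and the beige regulator Prdm16 had a log2FC of -0.01 ± 0.26.

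Mitochondrial and lipid genes had slightly higher fitted levels in HIF2α AKO, with no member past an unadjusted p of 0.05. Of 74 OXPHOS subunits, 67 were higher, with a median log2FC of 0.09. The median was -0.05 without HIF2α AKO replicate 2, -0.08 without WT replicate 2 and 0.29 without WT replicate 3, so its sign rested on single libraries. Atp5b, a subunit of ATP synthase, was at 1000.4, 1620.2 and 1373 CPM in HIF2α AKO and 1192, 869 and 1481 CPM in WT (log2FC 0.17 ± 0.26). HIF2α AKO replicate 1 and WT replicate 2, the libraries lowest in adipocyte markers, were the lowest for Atp5b as well.

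The same libraries moved with the other lists of this kind. The TCA cycle (18 of 18 genes higher, median 0.17 on the log2 scale), fatty acid oxidation (19 of 20, median 0.20), the mitochondrial ribosome (58 of 76, median 0.05), lipolysis and lipid droplet genes (14 of 14, median 0.24), fatty acid and triglyceride synthesis (18 of 19, median 0.28), cholesterol synthesis (9 of 14, median 0.05) and adipocyte identity (16 of 17, median 0.23) had no gene at an unadjusted p under 0.05. Without WT replicate 2 these medians lay between -0.10 and 0.01. Fasn, the fatty acid synthase, ran from 4280 CPM in HIF2α AKO replicate 1 to 20790 CPM in replicate 2, and from 4364 CPM in WT replicate 2 to 15936 CPM in replicate 3. The spread of Fasn within each genotype was thus far wider than the difference between them (log2FC 0.35 ± 0.60). G0s2, an inhibitor of the lipase ATGL, was at 86.1, 257 and 237 CPM against 108, 43.4 and 150 CPM (log2FC 0.95 ± 0.44, unadjusted p = 0.0554), with overlap.

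**Figure D5:**
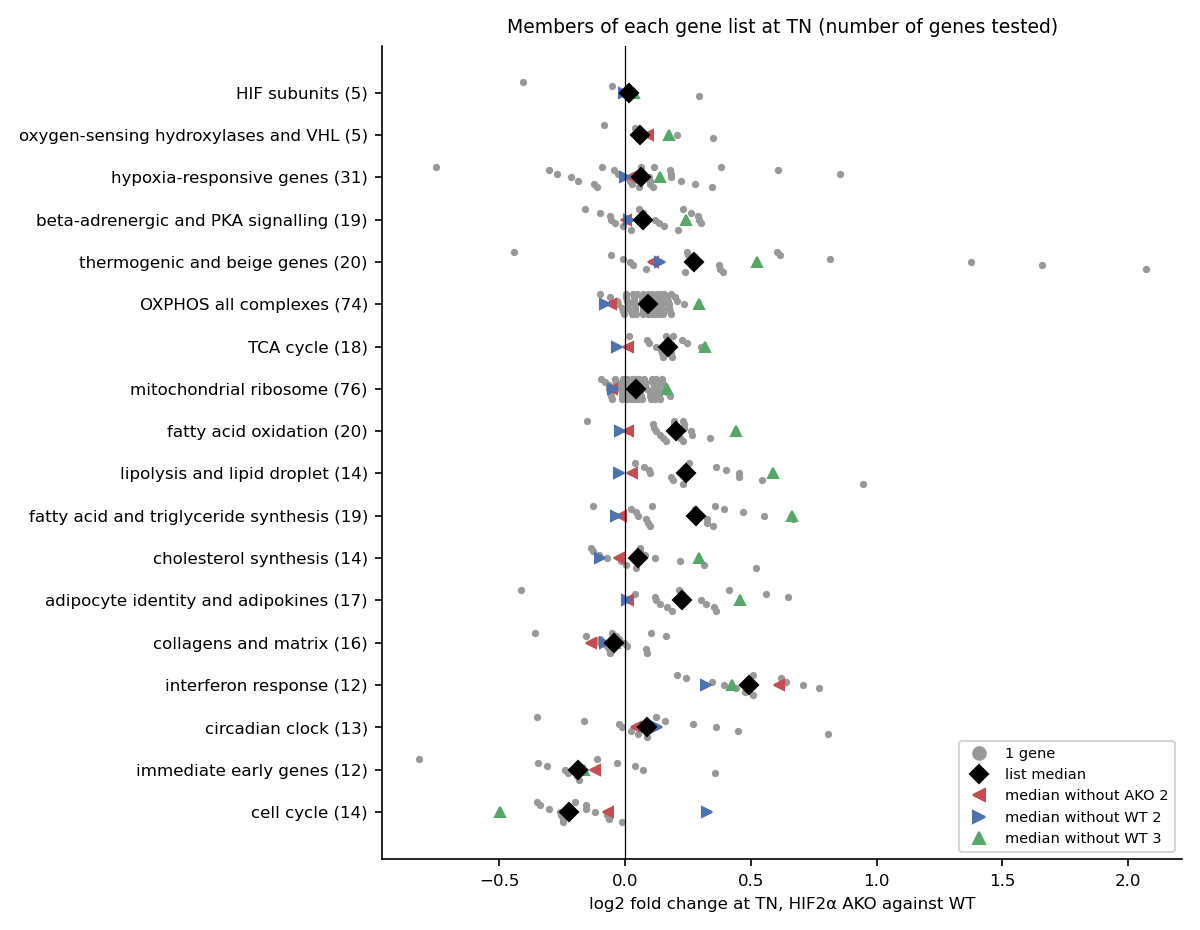
Log2 fold change at TN of every tested member of 18 gene lists (grey points) with the list median (black diamond) and the median without HIF2α AKO replicate 2 (red), WT replicate 2 (blue) or WT replicate 3 (green). The medians of OXPHOS and lipid lists move to about 0 without HIF2α AKO replicate 2 or WT replicate 2, whereas the interferon median stays between 0.32 and 0.61 in the settings shown.

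The 12 listed interferon response genes were all on the higher side in HIF2α AKO, whereas the interferon-inducible Gbp11, a lead gene outside the list, was on the lower side (log2FC -1.45 ± 0.39). The 12 genes had a median log2FC of 0.49, which lay between 0.32 and 0.72 when any 1 TN library was left out, and which was 0.11 upon cold. Rsad2, which encodes the antiviral enzyme viperin, was at 24.5, 29.8 and 42.9 CPM in HIF2α AKO and 29.5, 13.3 and 16.5 CPM in WT (log2FC 0.71 ± 0.30, unadjusted p = 0.0400), and was the only member past that limit, which 2.91% of all tested genes passed. Ifit1, which binds foreign RNA, was at 27.9, 26.1 and 36.5 CPM against 24.8, 12.1 and 16.0 CPM, and the ubiquitin-like Isg15 at 18.2, 15.1 and 19.5 CPM against 15.1, 8.77 and 13.2 CPM. Ifit1 and Isg15 were the 2 of 12 members with every HIF2α AKO library above WT, beside 3.69% of all tested genes. For Isg15 the lowest HIF2α AKO library and the highest WT library both rounded to 15.1 CPM. The summed level of the 12 genes was 1049, 822 and 1000.0 CPM against 894, 608 and 691 CPM, so HIF2α AKO replicate 2 lay below WT replicate 1. Macrophage markers, a cell type that expresses such genes, summed to between 3246 and 3499 CPM in HIF2α AKO and to 3503, 3487 and 2070 CPM in WT, and their part in the interferon values was not tested.

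Clock genes included 2 of 13 with an unadjusted p under 0.05, beside 2.91% of all tested genes. Per1 was at 62.3, 61.3 and 93.9 CPM in HIF2α AKO and 37.1, 41.9 and 45.4 CPM in WT (log2FC 0.81 ± 0.33), and Per2 at 15.8, 17.1 and 17.5 CPM against 12.8, 12.7 and 11.4 CPM (log2FC 0.45 ± 0.19). Both encode period proteins, which repress the clock's activators, and all HIF2α AKO libraries lay above WT for both, as for 3.69% of all tested genes. The activators Arntl and Clock had log2FC values of -0.16 ± 0.16 and 0.09 ± 0.15, with overlap. Per1 and Tsc22d3 had their highest level in the same library, HIF2α AKO replicate 3.

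Of 14 cell cycle genes, all had a lower fitted level (median -0.22), yet Mki67, a marker of proliferating cells, ran from 52.3 to 117 CPM in HIF2α AKO and from 38.4 to 164 CPM in WT, and the median was 0.33 without WT replicate 2. Of 12 immediate early genes, 9 had a lower fitted level (median -0.19) and none had an unadjusted p under 0.05. Fos, an AP-1 subunit, was at 4.36, 3.80 and 3.96 CPM in HIF2α AKO and 5.93, 5.24 and 10.2 CPM in WT, without overlap (log2FC -0.82 ± 0.40). The zinc finger factor Egr1 did not overlap either, at 39.8, 28.7 and 36.0 CPM against 40.7, 43.6 and 48.4 CPM, a narrow gap. Fos and Egr1 were the 2 of 12 with every HIF2α AKO library below WT, beside 4.0% of all tested genes. Collagens and matrix genes (5 of 16 higher, median -0.04) had no gene at that limit.

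Markers of blood, epithelium, muscle and nerve moved with the labelled groups or with single libraries. The erythroid genes Beta-s, a β-globin, and Alas2, the first enzyme of haem synthesis in red cell precursors, were above WT in all 3 HIF2α AKO libraries, as were 3.69% of all tested genes. Beta-s was at 221, 305 and 133 CPM in HIF2α AKO and 95.7, 83.2 and 80.4 CPM in WT (log2FC 1.35 ± 0.36, unadjusted p = 0.00308). Alas2 was at 19.4, 26.6 and 11.3 CPM against 8.07, 8.81 and 6.07 CPM (log2FC 1.32 ± 0.37). Upon cold both were on the lower side, at -0.46 and -0.54 on the log2 scale. The other listed globins Hba-a1 and Hba-a2, which have near-identical copies, were at 0 counts in all TN libraries.

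Epithelial markers were lower in HIF2α AKO for 13 of 13 genes, with a median log2FC of -3.45. Of these, 9 had an unadjusted p under 0.05, beside 1.65% of all tested genes that were lower at that limit. These values rested on WT replicate 3. Without it the median was -0.05 and 6 of the 13 were higher. The simple epithelial keratin Krt8 was at 52.0 CPM in WT replicate 3 and at most 0.206 CPM elsewhere, and Krt5, a basal keratin, at 15.5 CPM against at most 0.220 CPM. Skeletal muscle markers were higher for 16 of 16 genes, none at that limit, with a median of 3.15 that became -1.11 without HIF2α AKO replicate 2. The fast myosin Myh4 was at 536 CPM in that library and between 3.12 and 30.2 CPM in the others. The Schwann cell and nerve markers were lower for 6 of 6 tested genes, with 2 at an unadjusted p under 0.05, beside 1.65% of all tested genes that were lower. Their median was -0.46, and -0.11 without WT replicate 3. Sox10, a transcription factor of Schwann cells, was at 14.5 CPM in WT replicate 3, the library with the epithelial transcripts, and at 2.57 to 3.79 CPM in the other 5 libraries. Macrophage markers were higher for 13 of 14 genes (median 0.24, and -0.01 without WT replicate 3). Endothelial, progenitor and lymphocyte lists had medians within 0.1 of 0. Their part in the results for other genes was not tested.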

How the data were processed

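RNA-seq read counts per gene were analysed for the 6 TN libraries (3 HIF2α AKO, 3 WT), with the 6 cold libraries in the same fit. Per the paper's methods and the submitters' processing notes, the authors trimmed reads with Trim Galore (version 0.4.4), mapped them to GRCm38/mm10 with STAR (version 2.6.1d), and computed the deposited raw counts with HTSeq (version 0.13.5). They tested genes with DESeq2 (version 1.30.0). The annotation, strand setting and read length are not given in the sources used here, so overlapping genes and near-identical copies are uncertain. The deposited series table and the 12 per-sample tables held equal counts. Of 23420 genes, 4327 were at 0 in all TN libraries. The 5 tallies of reads outside genes (22.5 to 25.4% of TN reads) were left out.

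The tools were edgeR 4.0.16 under R 4.3.3, with limma 3.58.1 (voom) and DESeq2 1.42.0 as alternatives. The filter filterByExpr (minimum count 10, minimum total 15) left 15306 genes. A quasi-likelihood model of 4 groups was fitted after TMM scaling (biological coefficient of variation 0.202), and p-values were adjusted by Benjamini-Hochberg over the whole table (limit 0.05). The paper's own limits (unadjusted p 0.15, log2 fold change 0.2 in either direction) were applied as well. CPM are TMM-scaled. Labels number the replicates but do not state that each came from a separate mouse, so p-values measure the spread between these libraries. At these depths a count of 0 allows up to 3 counts, for counting error only.

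Named genes were Epas1, genes at an adjusted p under 0.05, the 10 higher and 10 lower genes with the smallest unadjusted p (no overlap, mean count at least 50, not markers of other cell types), members of each pathway list with an unadjusted p under 0.05 or otherwise the one with the highest mean CPM, and genes at that limit within 1.5 Mb of Epas1, Adipoq and Zfp949. Other list members named are examples. The members and lists were chosen with earlier results of these data known, so no count of them is independent evidence. Positions and sequences came from RefSeq (GRCm38.p6). The tests were tried on simulated counts with known changes. Of the genes changed by 0.5 on the log2 scale, edgeR called 6 of 83 and DESeq2 called 15 of 83. With a change of 1, edgeR called 35 of 59, and with a change of 2 it called 55 of 58. A gene without a call can therefore still differ by a small amount. A larger share of the calls fell on unchanged genes with DESeq2 than with edgeR or voom, so calls by DESeq2 alone are given with caution. The counts were drawn once for all 12 libraries, with the spread estimated by edgeR and no library standing apart. DESeq2 on the 6 TN libraries was not tried in this way, so the shares need not hold there. Alternatives were other scalings, filters, tools and libraries, and each TN library left out in turn. Results for 1 gene are not reported here.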

Additional observations from a re-analysis of the deposited data

How the results depend on the processing

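The log2FC values of the 33 other named genes with a test kept their sign in every alternative run, as did 9 of 31 list medians. Scaling by DESeq2's factors or upper quartiles turned the sign of 1 list median, that of the HIF subunits (-0.03 with upper quartiles). At an adjusted p under 0.05, 0 genes were called by edgeR on the 6 TN libraries (376 at an unadjusted p under 0.05), 13 by DESeq2 on these, 9 by DESeq2 on all 12 and 2 by voom. The fold change of Zfp949 without a call was 1.56 on the 6 TN libraries. Genes higher at an unadjusted p under 0.05 numbered 111 with upper-quartile factors and 777 with voom, lower genes 441 with no filter, 167 with a minimum count of 50 and 696 with voom. With each TN library left out in turn, higher genes ranged from 93 to 386 and lower genes from 137 to 340, and without HIF2α AKO replicate 2 and WT replicate 3 together they numbered 90 and 81. At the paper's limits, 607 genes were higher and 714 lower, against 399 higher with upper-quartile factors, 1238 lower with no filter, 1207 and 1299 with voom, 360 to 1189 higher and 576 to 948 lower with a library left out, and 404 and 366 without both libraries. Genes at an unadjusted p under 0.05 for the difference between temperatures numbered 813 with voom and 215 without both libraries. Epas1 ranged from -0.21 to 0.096 with a library left out, at 0.067 without HIF2α AKO replicate 1. The labels do not say whether the replicate numbers pair the libraries. The deviations of same-numbered TN libraries correlated at -0.05, -0.36 and 0.18. With 3 libraries a group, some of which stood apart, these values cannot exclude a pairing. With the number as a block, 0 genes were called (228 at an unadjusted p under 0.05, 98 higher and 130 lower) and Zfp949 was at 1.56. In that run 475 genes were lower at the paper's limits and 179 passed for the difference between temperatures. The causes were not tested. Ucp1 rests on 8 to 109 counts per TN library.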
